A study of Arabidopsis thaliana with 6 samples.

Results

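The transcripts described here encode 10 WRKY transcription factors of Arabidopsis thaliana that are induced by stress, namely WRKY6, WRKY11, WRKY18, WRKY22, WRKY33, WRKY40, WRKY46, WRKY53, WRKY60 and WRKY75. They were taken by gene identifier from a table of 33532 identifiers, and all 10 were present. Wild-type seedlings of the Col-0 ecotype, the common laboratory strain, were raised on plates of 1/2 MS, a standard plant salt medium, and harvested at 10 days. The 3 control libraries came from medium without drug. The 3 doxycycline libraries came from medium with 5 µg/mL doxycycline, an antibiotic of the tetracycline class whose target is the kind of ribosome found in bacteria, mitochondria and plastids. The stated question is how transcripts respond when mitochondrial translation is impaired. The design text calls the libraries biological replicates without saying whether plates or harvests were separate, so p-values measure the spread between these 6 libraries.

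WRKY factors form a large plant family named after a conserved stretch of amino acids in their DNA-binding domain. They bind the W-box, a short promoter element built on the bases TTGAC, and many WRKY genes carry W-boxes in their own promoters, so that the family regulates itself. Most of the genes described here are switched on within minutes by wounding, touch or microbial molecules through MAP kinases. WRKY40 has also been described as a repressor of genes that respond to mitochondrial and chloroplast dysfunction. The 10 genes span the structural groups of the family, with WRKY33 in group I, WRKY18, WRKY40 and WRKY60 in group IIa, WRKY6 in IIb, WRKY75 in IIc, WRKY11 in IId, WRKY22 in IIe, and WRKY46 and WRKY53 in group III.

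The W-boxes upstream of these genes are shown first, because they are what the family's own products can bind. Windows before the annotated gene start were read from the RefSeq sequence of assembly TAIR10.1 and searched for TTGACC and TTGACT on both strands, which read GGTCAA and AGTCAA on the opposite one. Within 1000 bases, all 10 genes held at least 1 match and 8 held 2 or more, against 67.3% and 33.1% of 27443 protein-coding genes. The closest packing was found in the 3 genes of group IIa, whose products bind each other. The stretches below run 5′ to 3′ on the strand of the gene, and capitals mark the W-boxes.
WRKY40: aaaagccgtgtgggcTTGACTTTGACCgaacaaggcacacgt
WRKY18: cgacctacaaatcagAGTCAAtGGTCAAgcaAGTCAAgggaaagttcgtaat
WRKY60: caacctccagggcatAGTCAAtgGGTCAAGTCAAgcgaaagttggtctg
They lie on the plus strand of TAIR10.1 at chr1:30382733-30382774 for WRKY40, chr4:15382026-15382077 for WRKY18 and chr2:10629010-10629058 for WRKY60. WRKY40 held 2 adjoining W-boxes between 813 and 802 bases before its start. WRKY18 held 3 between 736 and 715 bases, and WRKY60 held 3 between 637 and 619 bases, with the last 2 sharing a base. At least 2 W-boxes within 20 bases of each other were found before 4.10% of all coding genes, and at least 3 before 0.0911%. This packing was looked at after the matches had been seen. A match is a run of letters and does not show that a factor binds there.

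Nearer to the start, 4 of the 10 genes held a W-box within 250 bases, against 28.4% of coding genes. The windows of 3 of them, WRKY33, WRKY11 and WRKY53, are printed, chosen with their expression known. WRKY33 and WRKY11 lay below every control with doxycycline. The groups overlapped in WRKY53 and in WRKY75, the gene not printed. WRKY40 and WRKY46 also lay below every control and held 0 W-boxes within 250 bases. A tie between these W-boxes and the differences was not tested. Strand and position follow the same convention.
WRKY33: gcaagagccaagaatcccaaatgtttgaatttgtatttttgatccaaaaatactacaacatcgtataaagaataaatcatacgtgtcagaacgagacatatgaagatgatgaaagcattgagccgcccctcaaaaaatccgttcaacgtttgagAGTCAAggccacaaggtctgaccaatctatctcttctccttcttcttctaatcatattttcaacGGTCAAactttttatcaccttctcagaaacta
WRKY11: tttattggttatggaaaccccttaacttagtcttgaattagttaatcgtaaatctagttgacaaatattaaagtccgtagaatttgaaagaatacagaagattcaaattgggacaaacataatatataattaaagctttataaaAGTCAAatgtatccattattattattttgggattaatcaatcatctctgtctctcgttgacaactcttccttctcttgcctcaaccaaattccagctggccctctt
WRKY53: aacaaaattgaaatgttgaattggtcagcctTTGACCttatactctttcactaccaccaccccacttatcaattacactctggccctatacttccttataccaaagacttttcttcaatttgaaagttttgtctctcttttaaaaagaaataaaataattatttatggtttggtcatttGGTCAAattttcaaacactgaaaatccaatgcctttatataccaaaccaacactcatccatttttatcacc
They lie at chr2:16107985-16108234 on the plus strand for WRKY33, and on the minus strand at chr4:15291935-15292184 for WRKY11 and chr4:12393983-12394232 for WRKY53. WRKY33 held W-boxes 96 and 32 bases before its start, and 2 more farther out. WRKY11 held 5 within 1000 bases, the most of the 10, and WRKY22 and WRKY46 held 1 each. The element CGCGTT, a form of the rapid stress response element bound by calmodulin-regulated factors, was found within 1000 bases of WRKY6 and WRKY46, against 8.66% of coding genes.

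**Figure D1:**
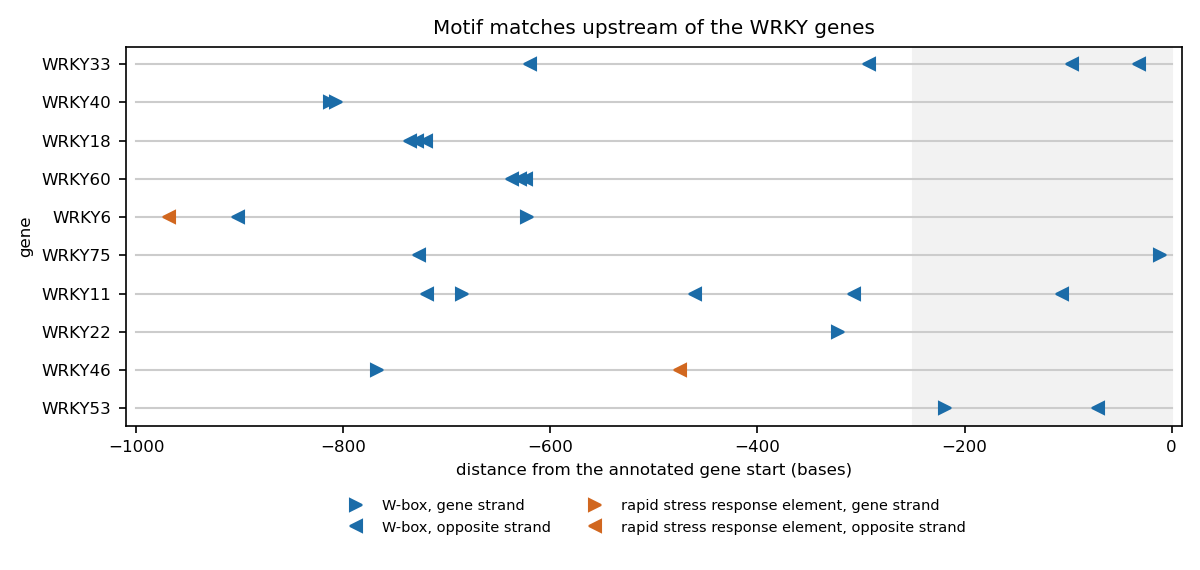
W-box matches (blue) and matches to a form of the rapid stress response element (orange) in the 1000 bases before the annotated start of each gene, with distance in bases on the x axis and 1 line per gene. Triangles point right for the strand of the gene and left for the opposite strand, and grey marks the nearest 250 bases. The tight clusters lie in WRKY40, WRKY18 and WRKY60.

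Values are FPKM, fragments scaled to transcript length and library total, so levels of different genes can be compared per length. Differences are doxycycline minus control on the scale of log2(FPKM + 1), which understates the change of low genes. They were tested with limma for the 19035 genes that averaged 1 FPKM or more, and all 10 WRKY genes passed that filter, WRKY46 only just at a mean of 1.00 FPKM. The controls differed from each other far more than the doxycycline libraries did, with correlations across genes of 0.831 to 0.895 against 0.988 to 0.992. Control 1 stood apart, at 0.961 to 0.964 with the doxycycline libraries, while controls 2 and 3 reached 0.827 to 0.856. Whether the library labelled control 1 carries the right label cannot be told from the files, and every difference from the controls below depends on it. An 18S ribosomal RNA gene (AT3G41768) stood at 10573 FPKM in control 2 and at 457 to 1833 FPKM in the other libraries. The summed FPKM of 10 root markers was 18.01, 61.6 and 50.4 in controls 1 to 3 and 19.0 to 25.3 under the drug, and 8 of them passed the filter, 1 below every control and 0 above, beside 25.7% and 9.59% of all genes. The nitrate transporter marker NRT2.1 was listed at 0 in control 1 and in doxycycline libraries 1 and 3. The sum of 8 shoot markers, of which none was at 0, was 56760.1, 14744 and 24684 FPKM in the controls and 46086 to 48589 FPKM under the drug. Much of that sum was LHCB1.3, at 38904, 6239 and 9304 FPKM in the controls and 30168 to 33266 FPKM under the drug. All 8 passed the filter, with 1 below every control and 0 above, beside 25.7% and 9.59% of all genes. The 1 below was AS1, at 24.8, 83.1 and 35.3 FPKM in the controls and 19.0 to 21.7 FPKM under the drug. Of the 8 differences over all libraries, 3 were negative and 5 positive. The part of these marker levels in the results below was not tested. In RNA of entire seedlings, fewer cells of a type and less RNA per cell cannot be told apart. For these reasons each difference of the 10 WRKY genes is given for all libraries, without control 1, and against control 1 alone. In the last test the single control takes its spread from the drug-treated group. For other genes only some of these differences are given. These comparisons share the doxycycline libraries. Set against control 1 only, 6 of the 10 WRKY genes had every doxycycline library below it and 2 above, where 36.9% and 37% of all genes did. Leaving out control 3 called 0 of the 10 and 0.0105% of all genes.

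Over all libraries, limma called 0 of the 10 genes and 0 of all genes tested (0%) at a Benjamini-Hochberg adjusted p of 0.05. At an unadjusted p under 0.05, 3 of the 10 were lower with doxycycline and 0 higher, against 18.8% lower and 6.83% higher among all genes. Without control 1, WRKY33, WRKY60, WRKY6, WRKY46 and WRKY53 fell, 5 of the 10 with 0 higher, where 35.6% of all genes were called lower and 9.77% higher. WRKY46 and WRKY53 averaged under 1 FPKM with doxycycline and passed the filter only through their controls, which favoured a fall, so their calls are given as a description. Against control 1 alone WRKY33, WRKY40 and WRKY11 fell, 3 of the 10 with 0 higher, where 4.75% were called lower and 6.78% higher. WRKY33 was thus the 1 gene of the 10 called in both. In 4 of the 10, WRKY33, WRKY40, WRKY11 and WRKY46, every doxycycline library lay below every control, and in 0 above, where 25.7% of all genes lay below and 9.59% above. WRKY46 was counted here as a description only. Its passage of the filter favoured a fall, and its closest libraries stood at 8.60 and 8.50 estimated fragments. The median difference of the 10 was -1.02, beside -0.29 for all genes. It was -1.50 beside -0.44 without control 1, and -0.29 beside 0.00 against control 1 alone. After median-of-ratios scaling the medians were -0.80 and 0.00, and 2 of the 10, WRKY33 and WRKY46, lay below every control against 17.2% of all genes. After quantile normalization the medians were -0.64 and 0.01, and the same pair lay below against 16.7%. With WRKY46 set aside, only WRKY33 lay below every control after either scaling. Under all 3 scalings 9 of the 10 differences were negative, WRKY22 being the exception, while 69.8% of all genes were negative on the deposited scale and 49.9% and 49.1% under the scalings. The medians of the 10 and these 9 differences include WRKY46 and WRKY53, whose passage of the filter favoured a fall. They are therefore given as a description.

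**Figure D2:**
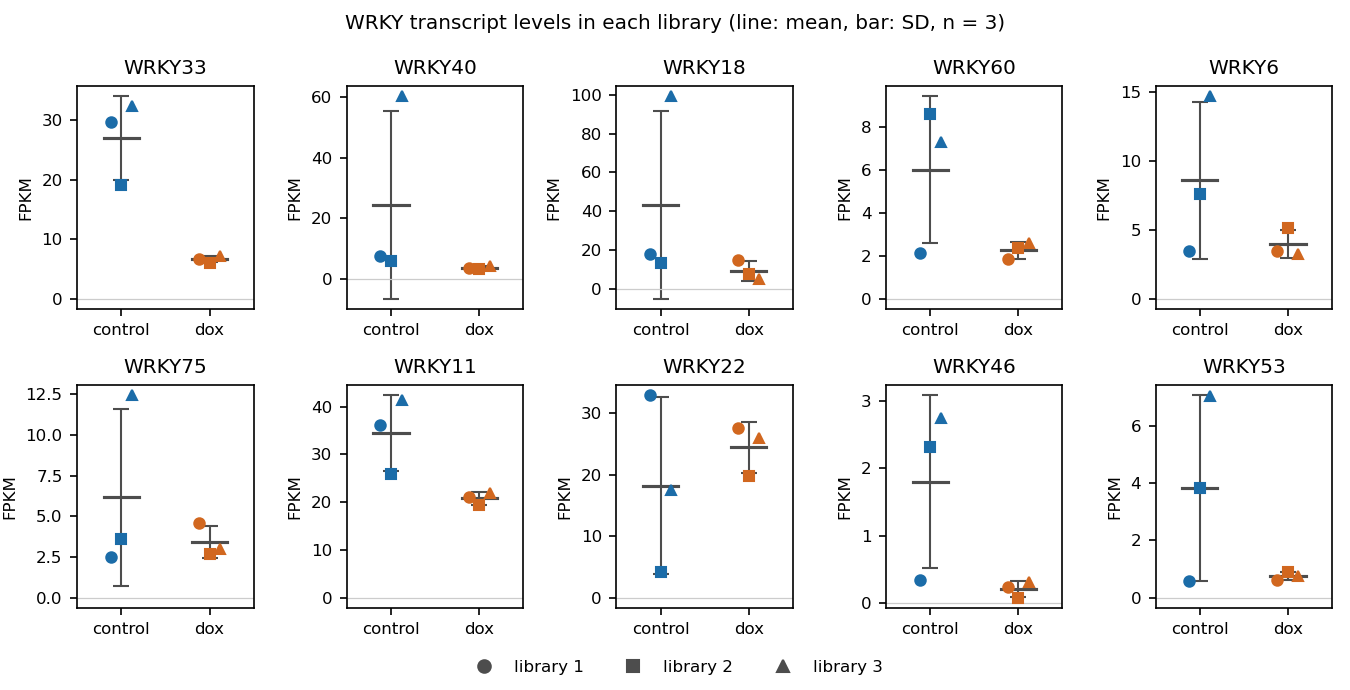
FPKM of the 10 WRKY genes in the 3 control libraries (blue) and the 3 doxycycline libraries (orange), with 1 panel per gene and its own linear axis. Symbols give the library number, lines the mean and bars the SD (n = 3). The doxycycline libraries lie close together in most panels, and control 3 is the highest control in 8 of the 10.

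WRKY33 (AT2G38470, chr2:16108235-16110766, plus strand), a MAP kinase substrate that drives camalexin synthesis and is required for resistance to necrotrophic fungi, was the best separated of the 10 (coordinates of all genes are TAIR10.1). It measured 29.7, 19.1 and 32.3 FPKM in control libraries 1 to 3, against 6.66, 6.05 and 7.16 FPKM in the doxycycline libraries. The 3 controls were high and the groups did not overlap, with the lowest control 2.67 times the highest doxycycline library. The means were 27.0 ± 7.02 and 6.62 ± 0.554 FPKM (SD, n = 3 each). The difference was -1.85 (SE 0.239), with an unadjusted p of 1.09e-04 and an adjusted p of 0.121 by limma. Of the 19035 genes, 14 had a p as low as this, WRKY33 included, and 35 lay at least as far below the closest control. WRKY33 fell without control 1 (-1.77, SE 0.242, adjusted p = 0.00334 by limma) and against control 1 alone (-2.01, adjusted p = 0.00648). It lay below every control under both scalings, at -1.55 and -1.52. An antisense non-coding gene (AT2G08965) overlaps WRKY33 over 272 bases. Whether the counting used strand is not given in the sources used here, so reads of the pair cannot be told apart. Protein-coding neighbours on the opposite strand overlap WRKY33 over 26 bases and WRKY40 over 51 bases.

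Group IIa holds WRKY18, WRKY40 and WRKY60, which form homo- and heterodimers and act as partly redundant negative regulators of basal defence and of abscisic acid responses. WRKY40 (AT1G80840, chr1:30383561-30385499, plus strand) measured 7.48, 5.79 and 60.4 FPKM in control libraries 1 to 3, against 3.50, 3.14 and 4.33 FPKM in the doxycycline libraries. Control 3 was far above the other controls, and the groups did not overlap. The difference was -1.72 (SE 0.784, adjusted p = 0.213 by limma). Taken by control library, the difference ranged from -0.55 (control 2) and -0.87 (control 1) to -3.73 (control 3), and without control 3 it was -0.71. Against control 1 alone WRKY40 fell (adjusted p = 0.0415 by limma), and without control 1 it did not pass (-2.14, SE 0.839, adjusted p = 0.0791). After either scaling the groups of WRKY40 overlapped.

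WRKY18 (AT4G31800, chr4:15382777-15385100, plus strand) measured 17.9, 13.2 and 99.3 FPKM in control libraries 1 to 3, against 15.1, 7.83 and 4.88 FPKM in the doxycycline libraries. Control 3 was again the high library. Doxycycline library 1 lay between controls 1 and 2, so the groups overlapped, and WRKY18 had the widest spread between doxycycline libraries of the 10 (log2 SD 0.732). The difference was -1.67 (SE 0.751, adjusted p = 0.209 by limma). It was -2.003 without control 1 (adjusted p = 0.0918) and -1.01 against control 1 alone (adjusted p = 0.224). Without control 3 it was -0.80.

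WRKY60 (AT2G25000, chr2:10629662-10631413, plus strand), whose promoter is a known target of WRKY18 and WRKY40, had another order among controls. It measured 2.13, 8.63 and 7.30 FPKM in control libraries 1 to 3, against 1.83, 2.36 and 2.59 FPKM in the doxycycline libraries. Control 1 lay within the doxycycline range, and controls 2 and 3 lay above it. The difference over all libraries was -0.96 (SE 0.442, adjusted p = 0.216 by limma), and -0.55 after quantile normalization. WRKY60 fell without control 1 (-1.46, SE 0.204, adjusted p = 0.00353) and stood at 0.05 against control 1 alone (adjusted p = 0.879).

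Group III holds WRKY46 and WRKY53, which act with WRKY70 in basal resistance. WRKY53 is in addition a regulator of leaf senescence. WRKY53 (AT4G23810, chr4:12392370-12393982, minus strand) measured 0.577, 3.83 and 7.05 FPKM in control libraries 1 to 3, against 0.634, 0.911 and 0.752 FPKM in the doxycycline libraries. Control 1 was below every doxycycline library and the other controls were above them. The gap below was small, with 16.5 estimated fragments in control 1 and 19.2 in doxycycline library 1, so depth limits that order. The difference over all libraries was -1.16 (SE 0.575, adjusted p = 0.235 by limma), and -0.65 without control 3. WRKY53 fell without control 1 (-1.82, SE 0.281, adjusted p = 0.00475 by limma) and differed by 0.16 from control 1 alone (adjusted p = 0.582). The gene overlaps AT4G23800 (3xHMG-box2) on the opposite strand over 341 bases. That neighbour stood at 11.8 to 30.8 FPKM in controls and 19.0 to 22.1 FPKM with doxycycline, above WRKY53 in each library.

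WRKY46 (AT2G46400, chr2:19043411-19044955, minus strand), which also acts in stomatal and drought responses, was the lowest of the 10. It measured 0.336, 2.31 and 2.74 FPKM in control libraries 1 to 3, against 0.236, 0.0780 and 0.310 FPKM in the doxycycline libraries. The groups did not overlap, but the estimated fragments behind these values were 8.60, 57.5 and 80.1 in controls and 6.39, 2.12 and 8.50 with doxycycline. Control 1 and doxycycline library 3 thus stood less than 1 fragment apart, and depth cannot show a difference between them. Over all libraries WRKY46 differed by -1.08 (SE 0.443, adjusted p = 0.187 by limma), and by -2.31 and -2.77 with pseudocounts of 0.1 and 0.01 in place of 1. WRKY46 fell without control 1 (-1.55, SE 0.243, adjusted p = 0.00499 by limma), with -0.15 against control 1 alone (adjusted p = 0.632).

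WRKY6 (AT1G62300, chr1:23016569-23019494, minus strand), a repressor of the phosphate exporter gene PHO1 and a gene of senescence and defence, stood at 3.46, 7.60 and 14.7 FPKM in controls 1 to 3. With doxycycline it stood at 3.45, 5.09 and 3.27 FPKM. Control 1 lay within the doxycycline range, and controls 2 and 3 lay above it. Over all libraries WRKY6 differed by -0.79 (SE 0.454, adjusted p = 0.285 by limma). It differed by -0.35 without control 3, by -0.51 after median-of-ratios scaling and by -0.40 after quantile normalization. WRKY6 fell without control 1 (-1.25, SE 0.311, adjusted p = 0.0202 by limma) and stood at 0.13 against control 1 alone (adjusted p = 0.751). WRKY75 (AT5G13080, chr5:4149738-4151201, minus strand), which is induced by phosphate starvation and acts in root hair growth and senescence, measured 2.51, 3.59 and 12.4 FPKM in control libraries 1 to 3, against 4.57, 2.70 and 3.01 FPKM in the doxycycline libraries. The groups overlapped and only control 3 lay above the doxycycline range. WRKY75 passed in none of the 3 comparisons, with differences of -0.46 over all libraries (SE 0.506), -0.85 without control 1 and 0.31 against control 1 alone, and limma adjusted p-values of 0.551, 0.172 and 0.445. The difference of WRKY75 was 0.12 without control 3, -0.20 after median-of-ratios scaling and -0.07 after quantile normalization.

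WRKY11 (AT4G31550, chr4:15289788-15291934, minus strand), a negative regulator of basal resistance that acts with WRKY17, measured 36.2, 25.9 and 41.4 FPKM in control libraries 1 to 3, against 21.0, 19.4 and 22.0 FPKM in the doxycycline libraries. Every control was higher, although control 2 exceeded the highest doxycycline library by a factor of only 1.18. The difference was -0.68 (SE 0.214, adjusted p = 0.144 by limma). WRKY11 fell against control 1 alone (-0.77, adjusted p = 0.0270) and did not pass without control 1 (-0.63, adjusted p = 0.0549). After either scaling the groups overlapped, with differences of -0.36 and -0.45.

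WRKY22 (AT4G01250, chr4:522530-524249, minus strand), which acts in early responses to the bacterial protein flagellin and in dark-induced senescence, was the 1 gene of the 10 with a positive difference, at 0.77 over all libraries (SE 0.629). It measured 32.9, 4.19 and 17.6 FPKM in control libraries 1 to 3, against 27.6, 19.8 and 26.0 FPKM in the doxycycline libraries. Control 1 was above the doxycycline range and controls 2 and 3 below it. The differences were -0.43 against control 1, 2.28 against control 2 and 0.44 against control 3, and the limma fits gave adjusted p-values of 0.431 over all libraries, 0.0695 without control 1 and 0.201 against control 1 alone. The fitted difference was 1.36 without control 1 and 0.01 without control 2. SEN1 (AT4G35770), a gene induced by darkness and senescence, had the same order, at 993, 35.3 and 357 FPKM in controls and 402 to 545 FPKM with doxycycline. SEN1 was chosen as an example after its values were seen.

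**Figure D3:**
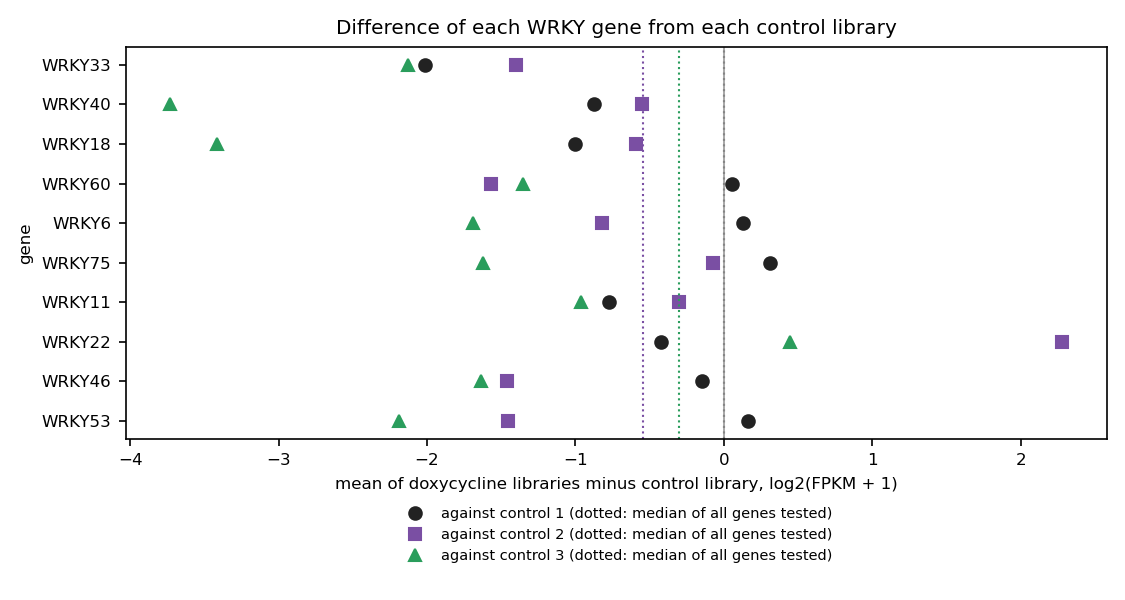
Mean of the doxycycline libraries minus each control library on the log2(FPKM + 1) scale (x axis) for each WRKY gene (y axis). Symbols give the control library, and dotted lines mark the median over all genes tested. WRKY33 lies between -2.13 and -1.40 against the 3 controls, WRKY40 reaches -3.73 against control 3, and WRKY22 reaches 2.28 against control 2.

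The median SD of the 10 genes between controls was 0.966 on the log2 scale, beside 0.459 for all genes tested, and 0.181 beside 0.131 between doxycycline libraries. Control 3 was the highest control in 8 of the 10, against 24.4% of all genes. WRKY60 was highest in control 2 and WRKY22 in control 1. The summed FPKM of the 10 reached 133, 94.1 and 295 in controls 1 to 3 but 84.6, 67.4 and 74.2 under doxycycline, so each doxycycline sum lay below each control sum. Control 2 exceeded the highest of them by 94.1 to 84.6 FPKM. These sums were not rescaled, and the median difference of all genes tested from control 2 was -0.54 on the log2 scale. The order of the sums thus cannot be read as particular to the 10 genes.

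With doxycycline, the order by mean FPKM began with WRKY22 (24.5 ± 4.15, SD, n = 3) and WRKY11 (20.8 ± 1.27), whose ranges overlapped. WRKY18 (9.27 ± 5.27) and WRKY33 followed and also overlapped. WRKY6 (3.93 ± 1.00), WRKY40 (3.65 ± 0.607) and WRKY75 (3.42 ± 1.00) could not be separated from each other. WRKY60 (2.26 ± 0.392), WRKY53 (0.766 ± 0.139) and WRKY46 (0.208 ± 0.119) came last, and their ranges did not overlap each other. In controls WRKY18 led at 43.5 ± 48.4 FPKM, followed by WRKY11 at 34.5 ± 7.90 and WRKY33 at 27.0 ± 7.02, and each neighbouring pair in that order overlapped.

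The genes whose profile over the 6 libraries was most like the mean profile of the 10 were ANNAT3 (annexin), AT2G28400 (annotated as a senescence regulator of unknown function), IAR3, PME1 (pectin methylesterase), AT1G26420 (a berberine family protein) and AT1G61890 (a MATE efflux protein). Their Pearson correlations were 0.996 to 0.998 over 6 libraries that share 1 high control. IAR3 (AT1G51760), an amidohydrolase of auxin and jasmonate conjugates, measured 23.6, 28.8 and 309 FPKM in control libraries 1 to 3, against a doxycycline mean of 8.83 ± 0.0578 FPKM (SD, n = 3). ANNAT3 (AT2G38760) stood at 7.89, 10.6 and 44.0 FPKM and at 4.78 ± 0.345 FPKM. Like WRKY40, these genes were highest in control 3 and lowest in the doxycycline libraries. Among the 10, correlation with their own mean profile was highest for WRKY40 (0.971) and lowest for WRKY22 (-0.28).

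Of the other 61 genes of the WRKY family in the table, 39 passed the filter. WRKY12, WRKY24, WRKY35 and WRKY61 averaged under 1 FPKM with doxycycline and passed only through their controls, which favoured a fall. They are counted here as a description. WRKY12 is among the genes below every control, and WRKY24 and WRKY35 are among those lower without control 1. Of the 39, 14 had all doxycycline values below all control values and 1 had them above, with a median difference of -0.56, beside 25.7% and 9.59% of all genes and their median of -0.29. After the scalings 11 and 10 lay below, beside 17.2% and 16.7% of all genes, and 3 and 4 above, beside 18% and 17.2%. None passed over all libraries. Without control 1, 23 were lower and 2 higher past the threshold, beside 35.6% and 9.77% of all genes, and against control 1 alone 3 were lower and 2 higher, beside 4.75% and 6.78%. The 3 lower against control 1 were WRKY70, WRKY26 and WRKY15, which also fell without control 1. WRKY65 (AT1G29280) was called in opposite directions, at -0.87 without control 1 (adjusted p = 0.00971 by limma) and 0.76 against control 1 alone (adjusted p = 0.0347), and it was named after its values were seen. WRKY70 (AT3G56400), the group III partner of WRKY46 and WRKY53, had the lowest p of the 39 and differed by -2.46 without control 1 (adjusted p = 0.00382 by limma) and -1.95 against control 1 (adjusted p = 0.0280). WRKY26 (AT5G07100), a group I factor that acts with WRKY33 and WRKY25 in heat tolerance, measured 25.6, 11.6 and 19.8 FPKM in control libraries 1 to 3, against a doxycycline mean of 8.52 ± 0.786 FPKM (SD, n = 3). WRKY15 (AT2G23320), described as a repressor of mitochondrial retrograde signalling under salt stress, averaged 47.9 ± 8.27 FPKM without the drug and 28.3 ± 3.05 FPKM on it. WRKY1, WRKY2 and WRKY19 also lay below every control, with differences of -0.93, -0.91 and -1.15. Against control 1 alone the differences of these genes were smaller, at -0.34, -0.50 and -0.41. The 1 gene above every control was WRKY3 (AT2G03340), a group I factor of resistance to necrotrophs, at 0.72 (SE 0.267, adjusted p = 0.169).

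**Figure D4:**
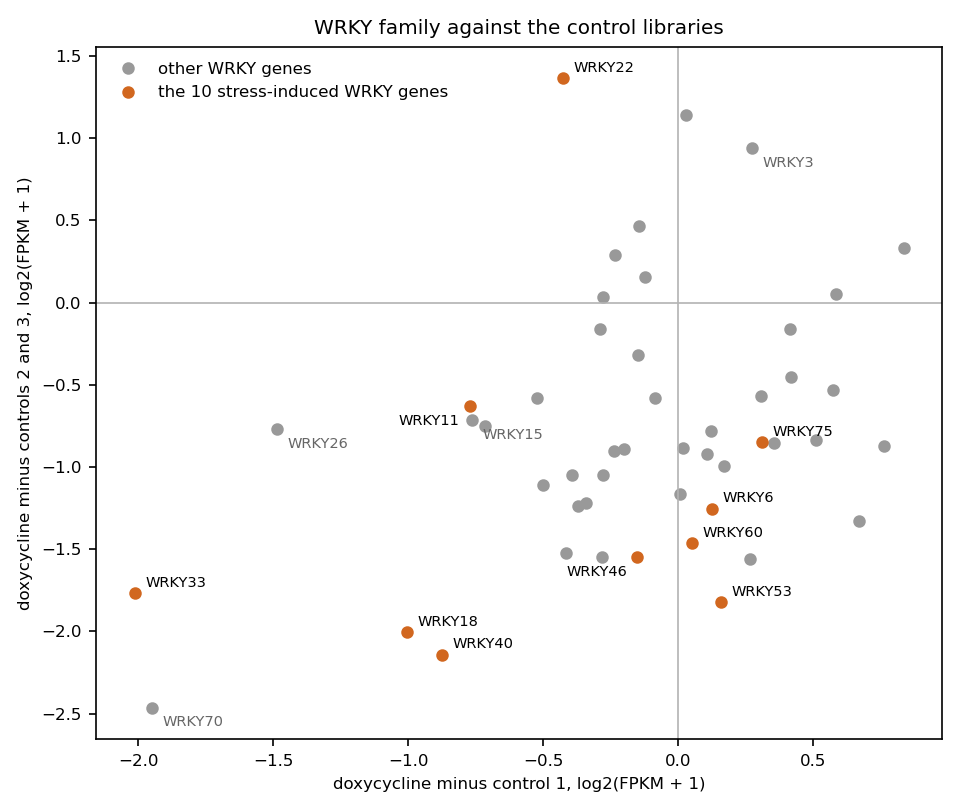
Difference between doxycycline and control 1 (x axis) and between doxycycline and controls 2 and 3 (y axis), both on the log2(FPKM + 1) scale, for the 10 stress-induced WRKY genes (orange) and the 39 other WRKY genes tested (grey), with 1 point per gene. Both axes use the same doxycycline libraries. WRKY33 and WRKY70 lie near -2 on both axes, and WRKY53, WRKY60, WRKY6 and WRKY46 lie near 0 on the x axis.

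MAP kinases phosphorylate WRKY33 and others of the family. Of 10 genes listed for the cascade 9 were tested, and in 5 every doxycycline library lay below every control, with 0 above, where 25.7% of all genes lay below and 9.59% above. MPK3 (AT3G45640), a kinase that phosphorylates WRKY33, measured 58.8, 55.3 and 48.6 FPKM in control libraries 1 to 3, against 21.9, 21.7 and 26.3 FPKM in the doxycycline libraries. The controls of MPK3 were even, and it differed by -1.13 without control 1 (adjusted p = 0.00340 by limma) and -1.30 against control 1 alone (adjusted p = 0.0137). MEKK1 (AT4G08500), at the top of a cascade, averaged 17.2 ± 3.29 and 9.82 ± 0.864 FPKM, and its target kinase MKK1 (AT4G26070) averaged 7.73 ± 0.284 and 4.47 ± 0.536 FPKM (SD, n = 3 each). Against control 1 alone MEKK1 differed by -0.42 and MKK1 by -0.63. None passed over all libraries, with adjusted p-values of 0.121 for MPK3 and 0.138 for MEKK1 and MKK1. The median of the 9 was -0.68, beside -0.29 for all genes, and 5 and 3 lay below every control after median-of-ratios and quantile scaling, beside 17.2% and 16.7% of all genes.

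VQ proteins bind WRKY factors and tune their activity. Of 6 listed, 5 were tested and 4 lay below every control, beside 25.7% of all genes, with a median of -0.75 beside -0.29. After the scalings 3 and 2 did so, beside 17.2% and 16.7%. SIB1 (AT3G56710), which binds WRKY33, measured 2.58, 6.91 and 6.43 FPKM in control libraries 1 to 3, against a doxycycline mean of 1.07 ± 0.283 FPKM. JAV1 (AT3G22160), a repressor of jasmonate defence, stood at 3.73, 9.99 and 16.4 FPKM against 2.22 ± 0.306 FPKM, and IKU1 (AT2G35230), known from seed size control, at 11.0 ± 1.70 against 6.09 ± 0.442 FPKM (SD, n = 3 each). In the limma fit without control 1 the 3 genes were lower (adjusted p of 0.00216, 0.00237 and 0.0264), and against control 1 alone IKU1 was (adjusted p = 0.0272).

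Camalexin is the main indole antimicrobial compound of Arabidopsis, and WRKY33 binds promoters of its synthesis genes. Of 9 listed genes for camalexin and ethylene synthesis 8 were tested, 5 lay below every control and 0 above, beside 25.7% and 9.59% of all genes, with a median of -1.32 beside -0.29. After the scalings 3 and 4 lay below, beside 17.2% and 16.7%. CYP71A12 (AT2G30750), a cytochrome P450 of the pathway, measured 3.26, 2.94 and 2.98 FPKM in control libraries 1 to 3, against 0.0850, 0.141 and 0.225 FPKM in the doxycycline libraries. The 3 controls were even and the groups far apart. CYP71A12 passed the filter only through its controls, which favoured a fall, and it fell without control 1 (-1.78, adjusted p = 0.00286 by limma) and against control 1 alone (-1.89, adjusted p = 0.0101). GSTF6 (AT1G02930), a glutathione transferase, also fell in both comparisons (-2.23 and -0.85, adjusted p of 0.00173 and 0.0290). PAD3 (CYP71B15, AT3G26830), the last enzyme, stood at 0.681, 4.55 and 4.22 FPKM against 0.604 ± 0.211 FPKM, with control 1 inside the doxycycline range. PAD3 too passed the filter only through its controls. CYP71A12 and CYP71A13 are close copies, so the split of reads between them is uncertain.

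Among pattern receptors and early response genes 9 of 11 were tested, with 5 below every control, 1 above (the receptor-like kinase gene BIK1) and a median of -0.69, beside 25.7% and 9.59% of all genes and their median of -0.29. The counts were also 5 and 1 after each scaling, where 17.2% and 16.7% of all genes lay below and 18% and 17.2% above. RBOHD (AT5G47910), the oxidase of the defence oxidative burst, measured 6.26, 41.2 and 30.5 FPKM in control libraries 1 to 3, against a doxycycline mean of 3.39 ± 0.123 FPKM, and it fell without control 1 (-3.05, adjusted p = 6.45e-04 by limma) and against it alone (-0.73, adjusted p = 0.0378). PEPR1, the receptor of danger peptides, and the chitin receptor CERK1 passed without control 1 (adjusted p of 0.0116 and 0.0108) and not against it alone (0.180 and 0.385). Of 10 salicylate and defence regulators 7 were tested, with 4 below every control and a median of -0.71, beside 25.7% and -0.29 for all genes. After the scalings 3 and 2 lay below, beside 17.2% and 16.7%. EDS5, EDS1 and PAD4 were lower without control 1 (-2.79, -0.98 and -1.57, adjusted p of 0.00241, 0.00567 and 0.00255) and did not pass against control 1 alone (adjusted p of 0.148, 0.449 and 0.630).

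WRKY40 and WRKY63 regulate nuclear genes for mitochondrial stress proteins. Of 8 such genes tested, 1 lay below every control and 1 above, beside 25.7% and 9.59% of all genes. Against control 1 alone 6 of the 8 had every doxycycline library above it, where 37% of all genes did, with a median of 0.68 beside 0.00. Without control 1 limma called 3 of the 8 lower and 0 higher, beside 35.6% and 9.77% of all genes. AOX1D (AT1G32350), a minor alternative oxidase, measured 0.998, 1.51 and 3.99 FPKM in control libraries 1 to 3, against 0.0720, 0.0710 and 0.142 FPKM in the doxycycline libraries. AOX1D passed the filter only through its controls, which favoured a fall. It fell without control 1 (-1.69, adjusted p = 0.0110 by limma) and against control 1 alone (-0.87, adjusted p = 0.0352). UPOX (AT2G21640), a gene induced by oxidative stress in mitochondria, was the 1 above, at 4.31, 40.8 and 18.6 FPKM in controls and 45.2 ± 3.14 FPKM with doxycycline. Its lowest doxycycline library, at 41.9 FPKM, lay only just above control 2. UPOX rose against control 1 alone (3.12, adjusted p = 0.00179) and did not pass without it (0.69, adjusted p = 0.115). OM66 (AT3G50930), an outer membrane protein and a target of WRKY40, stood at 1.69, 9.75 and 17.3 FPKM against 1.45 ± 0.317 FPKM, with control 1 in the doxycycline range. The median of the 8 was -0.19 on the deposited scale, 0.14 after median-of-ratios scaling and -0.07 after quantile normalization.

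**Figure D5:**
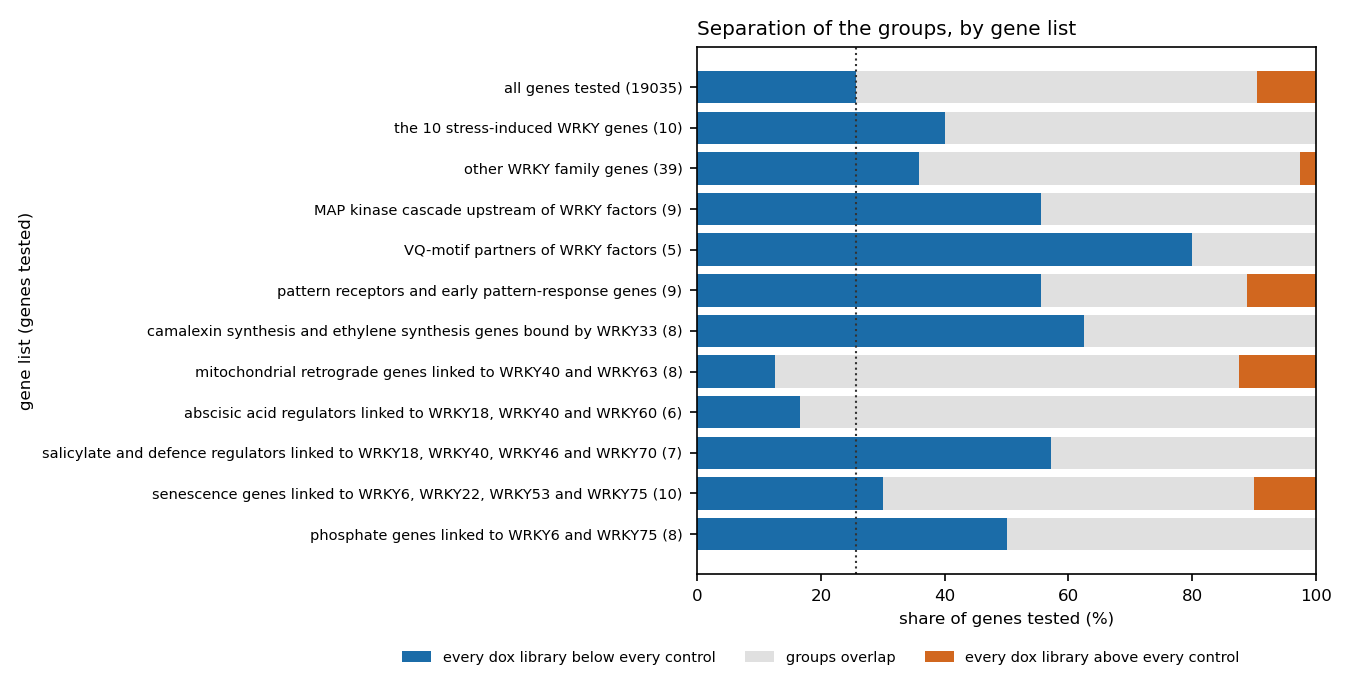
Share of tested genes (x axis, %) in each gene list (y axis, number tested in parentheses) in which every doxycycline library lay below every control (blue), the groups overlapped (grey) or every doxycycline library lay above (orange), on the deposited scale. The dotted line marks the 25.7% of all genes that lay below. The 10 WRKY genes stand at 40.0%, the VQ partners at 80.0% of 5 and the mitochondrial retrograde genes at 12.5% of 8. The 40.0% counts WRKY46, whose closest libraries cannot be separated at this depth.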

How the data were processed

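RNA of seedlings was taken up in TRIzol and sequenced from VAHTS Universal V6 libraries, per the labels' protocols. The authors deposited 1 table of FPKM values with 1 column per library, the unit being read from its values. TopHat2 2.1.0 and Cufflinks 2.2.1 with the TAIR10 genome are named in the submitters' processing notes. The sources used here give neither strand handling nor filters. Since FPKM divides by the total of each library, abundant genes move all others, and reads of overlapping genes may be shared.

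The scale was log2(FPKM + 1), and genes averaging under 1 FPKM were left out. Limma 3.58.1 in R 4.3.3 compared doxycycline with control, in two-sided tests with a variance trend, and p-values were adjusted by Benjamini-Hochberg across all 19035 genes, with calls under 0.05. The fit was tested on simulated data whose noise in both groups came from the doxycycline libraries. The median log2 SD over all genes tested was 0.131 there and 0.459 between controls, so that test does not cover the spread between controls. Groups were said not to overlap where every library of one lay beyond every library of the other. Steps in the FPKM of weakly expressed genes with 1 annotated model gave a depth of 18400000 to 21600000 fragments per library. On that scale 33.8% to 46.1% of low values were whole within 0.08 fragments, where chance gives 16%, so no count model was run.

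WRKY genes were found by symbol or synonym in a RefSeq table of TAIR10.1, which held 32789 of the 33532 identifiers and 71 WRKY genes. Promoter windows came from that assembly, which is not the build the submitters name, and the deposited table holds no coordinates. The 10 genes and all gene lists were chosen with earlier results of these data known. Named were the 10 genes, up to 6 other WRKY genes with the lowest p and no overlap, up to 3 genes with the lowest p per list, and the 6 genes most like the mean profile. The alternatives tried were other pseudocounts (0.1 and 0.01), omitting the filter, a filter at 5 FPKM, 2 scalings, robust variances, a replicate block, each library left out in turn, and control 1 as the only control.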

Additional observations from a re-analysis of the deposited data

How the results depend on the processing

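The calls depended on which controls were used. Limma called 0 genes, 0 of the 10 WRKY genes and 0 of the 49 WRKY family genes over all libraries. Leaving out 1 library gave 0 to 8637 genes, 0 to 5 of the 10 and 0 to 30 of the family, with the highest counts without control 1 and 2 genes called without control 3. Control 1 as the only control gave 2194 genes, 3 of the 10 and 8 of the family. In that setting WRKY60 (0.053), WRKY6 (0.13), WRKY75 (0.31), WRKY53 (0.16) and WRKY22 (-0.43) changed sign, and WRKY75 ranged from -0.85 to 0.12 when 1 library was left out, turning positive without control 3. The cause was not tested. The other pseudocounts, filters, scalings, robust variances and the replicate block called 0 genes and changed no sign of the 10. The mean filter of 5 FPKM left 6 of the 10. Same-numbered libraries did not deviate together (correlations of -0.00158, -0.0144 and -0.137, and none was the best match of its number), so the main fit did not pair them. With 3 libraries per group, this check cannot exclude that same-numbered samples were handled together. The replicate block gave 0 calls. Depth limits WRKY46, at 2.12 to 8.60 estimated fragments in 4 of the 6 libraries.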

Other observations

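Senescence genes linked to WRKY6, WRKY22, WRKY53 and WRKY75 went both ways. Of 10 tested, 3 lay below every control and 1 above, near the 25.7% and 9.59% of all genes. The NAC factor gene ORE1 (AT5G39610), a main regulator of leaf senescence, measured 12.8, 28.5 and 16.8 FPKM in control libraries 1 to 3, against a doxycycline mean of 4.24 ± 0.555 FPKM (SD, n = 3). It fell without control 1 (-2.13, adjusted p = 0.00230 by limma) and against control 1 alone (-1.40, adjusted p = 0.0151). NAP (AT1G69490), another senescence NAC factor, likewise fell in both comparisons (-2.88 and -1.26, adjusted p of 0.00214 and 0.0441). SAG21 (AT4G02380), a late embryogenesis abundant protein of mitochondria, rose in both (2.38 and 1.90, adjusted p of 0.00144 and 0.00995). The marker of late senescence SAG12 (AT5G45890) stood at 6.14 FPKM in control 3 and was listed at 0 in the other 5 libraries, and was named after its values were seen. SAG12 is among the 10 tested and passed the filter only through control 3, so it is counted there as a description.

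Of 8 phosphate genes linked to WRKY6 and WRKY75, 4 lay below every control on the deposited scale and after both scalings, beside 25.7% of all genes and 17.2% and 16.7% after the scalings, with a median difference of -1.80 beside -0.29. PHO2 (AT2G33770), a ubiquitin-conjugating enzyme that lowers phosphate uptake, measured 23.1, 57.4 and 41.9 FPKM in control libraries 1 to 3, against a doxycycline mean of 12.03 ± 1.69 FPKM (SD, n = 3). It fell without control 1 (-1.95, adjusted p = 0.00164 by limma) and against control 1 alone (-0.89, adjusted p = 0.0345). The non-coding transcripts IPS1 and AT4, induced by phosphate starvation, fell in both comparisons too, with differences of -5.78 and -5.00 without control 1 and of -2.26 and -1.36 against control 1 alone. Of 6 abscisic acid regulators tested from a list of 8, 1 lay below every control and 0 above, beside 25.7% and 9.59% of all genes. The median of the 6 was -0.09 on the deposited scale and turned positive, to 0.17 and 0.03, under the scalings. DREB2A (AT5G05410), a drought response factor, measured 6.24, 3.16 and 3.40 FPKM in control libraries 1 to 3, against a doxycycline mean of 7.64 ± 1.91 FPKM. MYB2 (AT2G47190) stood at 0.542, 1.54 and 4.33 FPKM against 0.182 ± 0.0981 FPKM. Without control 1 limma called 1 of the 6 higher and 1 lower, beside 9.77% and 35.6% of all genes. These were DREB2A (0.99, adjusted p = 0.0183) and MYB2 (-1.64, adjusted p = 0.0139). Against control 1 alone the 2 differed by 0.23 and -0.39. MYB2 was the 1 below, and it passed the filter only through its controls, which favoured a fall.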
